A study of Mus musculus and Homo sapiens with 18 samples.

Results

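Pumps that move sodium and calcium out of the cell are described here across the RNA-seq libraries of a study that deleted the gene for the RNA-binding protein quaking (Qk in mouse, QKI in human). The set holds 7 genes, taken from a list of symbols looked up in each of the 3 gene count tables. The rule uses no measured value, but the list was drawn up with earlier results of these data known. It holds the sodium pump beta subunits Atp1b1, Atp1b2 and Atp1b3, the calcium pump of the endoplasmic reticulum Atp2a2, and the plasma membrane calcium pumps Atp2b1, Atp2b2 and Atp2b4. All 7 were counted in every table, of 46882 genes in the mouse lens table, 54838 in the table of mouse progenitor-like cells and 60880 in the table of the human cell line. A filter on low counts kept all 7 in both mouse fits and 6 in the human fit, where ATP2B2 was too low to be tested.

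Each system had 3 control and 3 deletion libraries. By the sample labels, eye lenses came from Nestin-CreERT2; QkL/+ mice (Ctrl), which carry 1 floxed allele, and from Nestin-CreERT2; QkL/L mice (Qk-iCKO), C57BL/6 animals that carried a Cre recombinase driven by the Nestin promoter. Per the study's methods, both genotypes received tamoxifen at postnatal days 7 and 8, and lenses were taken in the third postnatal week. Those methods describe control littermates of several genotypes, of which the labels of these libraries give Nestin-CreERT2; QkL/+ alone. Lens progenitor-like cells (NLPC) were grown from neural stem cells of newborn Nestin-CreERT2; QkL/L brains with Noggin for 6 days and then bFGF, BMP4 and BMP7 for 12 days, as wild type (WT) cultures or after 4-hydroxytamoxifen (labelled Qk-/-). HLE-B3, an immortalized human lens epithelial line, was compared as WT cells and as cells carrying a CRISPR-Cas9 knockout of QKI (QKI KO), for which the sources do not say whether they were 1 clone. The study's reporting statement describes its cell line work as done with independent biological replicates, but no label ties a library to a culture, so p-values in the cell systems measure the spread between these libraries, which may be in part technical.

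The sodium pump (Na,K-ATPase) is built from a catalytic alpha subunit and a beta subunit that carries the complex to the cell surface, and it exchanges internal sodium for external potassium at the cost of ATP. Calcium is cleared from the cytoplasm into the endoplasmic reticulum by pumps of the SERCA family, of which Atp2a2 encodes SERCA2, and across the plasma membrane by the calmodulin-activated PMCA pumps encoded by Atp2b genes. In the lens, which has no blood vessels, pump activity of the epithelium drives the ion and water circulation on which transparency depends, and raised calcium activates calpain proteases and accompanies opacity.

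Total counts ranged from 10319320 to 16425331 in lens libraries, from 28154202 to 68243360 in NLPC and from 69190864 to 81384471 in HLE-B3. Qk itself was at 121 ± 5.66 CPM (counts scaled to library size with TMM factors, mean ± SD, n = 3) in Ctrl and 97.5 ± 9.72 in Qk-iCKO lenses (log2 fold change −0.31, edgeR quasi-likelihood adjusted p = 0.200), and QKI fell from 261 ± 3.42 to 103 ± 2.54 CPM in HLE-B3 (−1.34). In the NLPC libraries labelled Qk-/-, Qk counts were higher (3394 ± 273 against 2549 ± 116 CPM, log2 fold change 0.41, adjusted p = 0.0270). A count over the whole gene does not show whether the floxed exon was lost, so it checks the deletion neither in lens nor in NLPC, and quaking protein is not measured in these tables. NLPC libraries are named WT or Qk-/- by their labels throughout. The library Qk-iCKO 1 stood apart, with a scaling factor of 1.47 against 0.889 to 0.962 in the other 5 lens libraries and a summed level of 10 fibre markers of 112820 CPM against 177370 to 223631 in those 5. Ctrl 2 held 614 CPM of 7 photoreceptor markers against 2.19 to 91.1 in the others. Defining lens markers were in part at or near 0. Foxe3 and Birc7 had at most 3 counts in every NLPC library, CRYAA, BFSP2, LIM2 and DNASE2B in every HLE-B3 library and Lim2 in every lens library.

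On GRCm38 Atp2b1 lies at chr10:98914406-99026143 on the plus strand and Atp1b1 at chr1:164437109-164458355 on the minus strand, and Atp2b4 lies on the same minus strand at chr1:133699457-133801041. Atp2b2 lies at chr6:113743831-114042613 on the minus strand. Promoter sequence is shown for Atp1b1 and Atp2b1, the genes that were higher in more than 1 system. RefSeq windows (GRCm38) matched 5 of the 7 mouse genes with 9 start sites, and 250 bases before each start were searched on both strands for 4 motifs, which share no letters at any match printed here. The first, TCACNCCAC, is of the sterol regulatory element type that SREBP2 can bind. The others were the E-box CACGTG, which reads the same on both strands, the GC box GGGCGG, and the CCAAT box. TCACNCCAC was found in 1 of the 9 windows, the first one of Atp2b1, and in 1.05% of all 32851 windows of that length. The matched stretch of Atp2b1, at chr10:98914475-98914504 on the plus strand, is printed with the match in capitals, and the window of Atp1b1, at chr1:164458356-164458605 on the minus strand, with its GC boxes and CCAAT box (opposite strand) in capitals.
Atp2b1: ccccgccgccTCACCCCACcccgggcgcgc
Atp1b1: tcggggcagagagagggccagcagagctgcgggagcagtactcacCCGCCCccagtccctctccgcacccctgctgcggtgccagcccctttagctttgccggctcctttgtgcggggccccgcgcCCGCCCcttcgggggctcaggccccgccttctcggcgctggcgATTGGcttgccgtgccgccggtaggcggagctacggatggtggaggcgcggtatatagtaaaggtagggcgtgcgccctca
The Atp2b1 match lay 157 bases before the RefSeq start but inside the gene span given above, which begins at chr10:98914406. GGGCGG occurred in 32.7% of all windows, CCAAT in 33.8% and CACGTG in 6.02%. Among the 5 genes with windows, CACGTG was found in a window of Atp1b3 alone. A match of letters is a description and not evidence of binding.

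Quaking proteins bind the RNA sequence ACUAAC, so its DNA form ACTAAC was searched in 1 coding transcript per gene (GENCODE, the longest coding sequence). The motif was present in 24.8% of 21877 mouse genes and 24.1% of 19807 human genes. Among the 7 mouse genes it was found in Atp2a2, with 2 copies in 4486 bases, and Atp2b4, with 1 copy in 11725 bases. In human it was found in ATP2A2 with 7 copies, ATP1B1 with 2, and ATP1B2 and ATP2B2 with 1 each. The mouse sites are printed with 12 bases on either side, the core in capitals. The first lies in the Atp2a2 coding sequence and the others after the stop codon.
Atp2a2 site 1: tacagcacagacACTAACtttagcgatatg
Atp2a2 site 2: cgtgtacagagaACTAACactattttatgc
Atp2b4 site 1: ccttatttgataACTAACtgatgaagtcat
The searched transcripts of Atp2b1 and ATP2B1 held no copy of these 6 letters. Longer transcripts have more chance of a match, and the median mouse transcript searched was 2539 bases long.

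The leading beta subunit was Atp1b3 in lens and HLE-B3 and Atp1b2 in NLPC, while Atp2b1 led the PMCA pumps in all 3 systems, on a per-length scale (RPKM, CPM divided by the length of the merged exons in kilobases). Ctrl lenses were dominated by Atp1b3, at 69.2 ± 5.79 RPKM (n = 3), followed by Atp2a2 at 10.5 ± 0.930 and Atp1b1 at 5.41 ± 1.14. Atp2b1 (0.398 ± 0.164) and Atp1b2 (0.311 ± 0.203) came next with overlapping libraries, and Atp2b2 (0.0761 ± 0.0471) and Atp2b4 (0.0564 ± 0.0353) were lowest, again overlapping. Every other neighbouring pair in that order had separate ranges of libraries.

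In WT NLPC the glial beta subunit Atp1b2 ranked first, at 131 ± 23.2 RPKM, ahead of Atp2a2 at 66.9 ± 4.88, Atp1b1 at 28.9 ± 1.70, Atp1b3 at 24.9 ± 1.05 and Atp2b1 at 13.7 ± 1.08. Atp2b4 (0.369 ± 0.0481) and Atp2b2 (0.0470 ± 0.00364) were again at the bottom, and no neighbours in the order overlapped. In WT HLE-B3 cells ATP1B3 ranked first, at 38.0 ± 2.63 RPKM. ATP2A2 (23.3 ± 0.896) and ATP2B1 (22.9 ± 0.781) followed with overlapping libraries, then ATP2B4 (14.1 ± 1.16), ATP1B1 (5.46 ± 0.285), ATP1B2 (0.236 ± 0.0638) and ATP2B2 (0.0181 ± 0.00938). Systems were normalised separately, so levels are compared within each system.

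**Figure D1:**
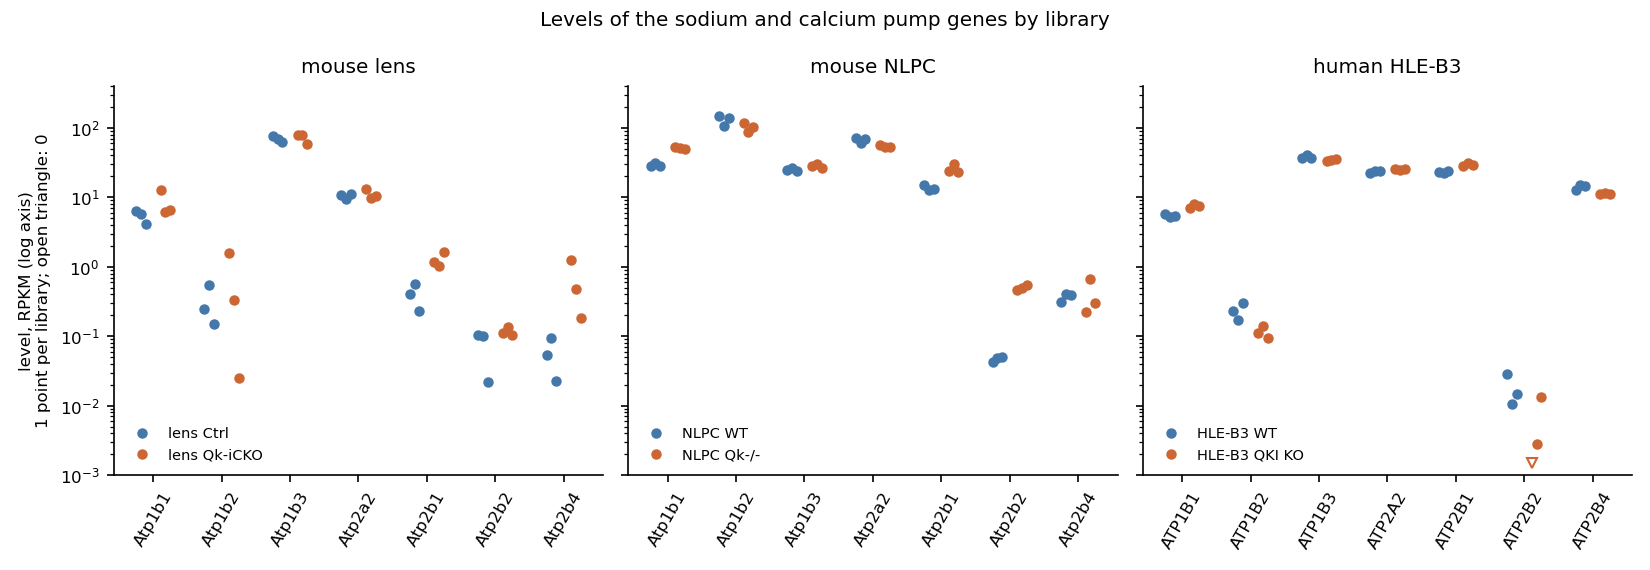
Level of each gene in RPKM (log axis) in every library, with control libraries in blue and deletion libraries in orange, for mouse lens, mouse NLPC and human HLE-B3. Atp1b3 is the highest of the 7 in lens and HLE-B3 and Atp1b2 in NLPC, and the open triangle marks the QKI KO library in which ATP2B2 had a count of 0.

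Expressed as shares of their family, Atp1b3 made up 92.4% ± 1.06 of the summed RPKM of the 3 beta subunits in Ctrl lenses and 86.9% ± 1.33 in WT HLE-B3, whereas Atp1b2 made up 70.6% ± 4.93 in WT NLPC. Among the 4 PMCA genes (Atp2b3 included), Atp2b1 held 73.5% ± 2.16 in Ctrl lenses, 96.4% ± 0.219 in WT NLPC and 61.9% ± 2.32 in WT HLE-B3, where ATP2B4 held 37.9% ± 2.32. A 2-sided exact permutation test of such a share, 3 libraries against 3, cannot go below p = 0.10.

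**Figure D2:**
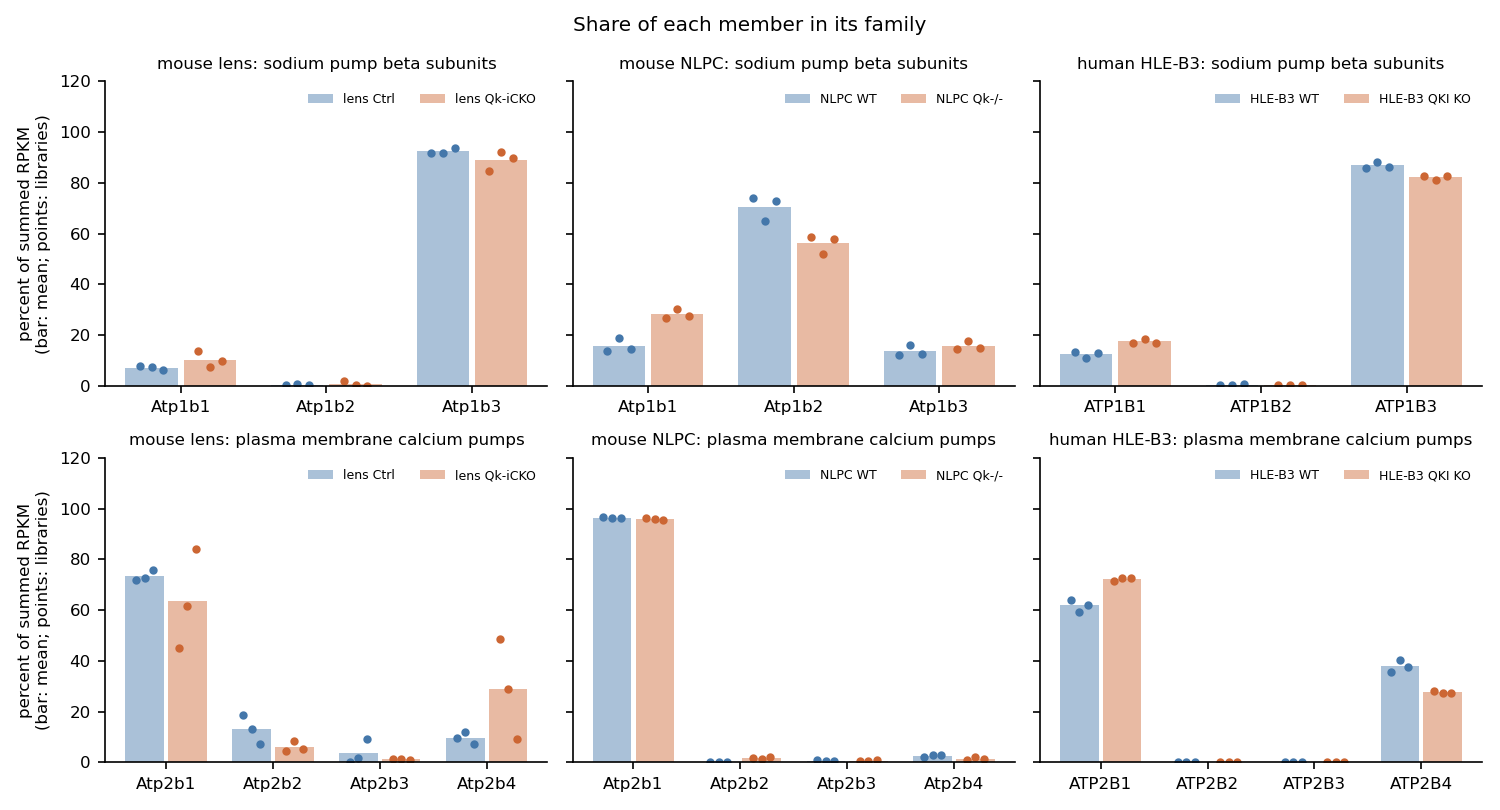
Share of each gene in the summed RPKM of the beta subunits (upper row) and of the PMCA pumps (lower row), with bars for the mean of 3 libraries and points for the libraries, control in blue and deletion in orange. Atp1b1 took a larger share in the NLPC Qk-/- and QKI KO libraries than in their controls, and ATP2B4 a smaller one in QKI KO.

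In both mouse systems the called changes of largest size were in PMCA pumps. Atp2b1, the PMCA1 pump found in nearly all cells, was the 1 gene of the set that passed the test as higher in all 3 systems. Atp2b4 (PMCA4) passed as higher in lens and lower in HLE-B3, and Atp2b2 (PMCA2, best known from neurons and hair cells) passed as higher in NLPC. In all, 2 of 7 genes passed the test in lens, both higher, beside 8.38% of all 12201 genes tested called higher and 3.88% called lower. Of these 2, Atp2b4 entered the lens test only through its Qk-iCKO libraries and could be called only as higher. In NLPC 3 of 7 passed, all higher, beside 4.74% called higher and 5.96% called lower among 20371 genes. In HLE-B3 2 of 6 passed as higher and 1 as lower, beside 17.0% higher and 16.3% lower among 19049 genes. The median log2 fold change of the set was 0.65 in lens, 0.18 in NLPC and −0.0094 in HLE-B3, against 0.0064, 0.040 and −0.020 for all genes tested. That lens median is the value of Atp1b1, which did not pass there and was 0.24 without Qk-iCKO 1. Scaling lens libraries by their totals alone shifted the median of all lens genes to 0.29, and of the genes then called in lens 86.7% were higher, against 68.4% with TMM factors. Atp2b1 (log2 1.94, adjusted p = 0.0245) and Atp2b4 (3.95, adjusted p = 0.0420) passed with either scaling.

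Atp2b1 in lens stood at 6.20, 8.47 and 3.49 CPM in the Ctrl libraries and at 17.6, 15.6 and 25 CPM in the Qk-iCKO libraries. All 3 Qk-iCKO values lay above all 3 Ctrl values, and in lens 2 of the 7 genes, beside 35.3% of all genes, had groups that did not overlap. The fitted change was 3.20-fold (log2 1.68 ± 0.33 SE, adjusted p = 0.0174). Without Ctrl 1 the log2 fold change was 1.69 and missed the threshold (adjusted p = 0.0778), and in each of the 5 other fits that left out a library it passed, including that without Qk-iCKO 1 (1.75, adjusted p = 0.0290). Raw counts of Atp2b1 were between 51 and 119 in Ctrl libraries, so this gene was sparsely sampled in lens. In bulk tissue, a change in the number of cells that express a gene and a change in RNA per cell cannot be told apart.

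The same gene in NLPC was at 228, 197 and 202 CPM in WT and at 361, 462 and 351 CPM in the libraries labelled Qk-/-. The groups were well separated, as they were for 5 of the 7 genes in NLPC, beside 35.2% of all genes. The rise was 1.87-fold (log2 0.91 ± 0.12, adjusted p = 0.0038), and it passed in each of the 6 fits without 1 library. In HLE-B3, ATP2B1 went from 218, 211 and 226 CPM in WT to 273, 294 and 281 CPM in QKI KO, a smaller but tight difference of 1.29-fold (log2 0.37 ± 0.054, adjusted p = 5.08e-05). In HLE-B3 all 6 tested genes had groups that did not overlap, beside 44.6% of all genes. The 50 tested genes nearest to ATP2B1 on chromosome 12 had a median log2 fold change of 0.083, which leaves 0.29 for ATP2B1 after subtraction.

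Atp2b4 in lens was nearly absent from the Ctrl libraries, at 0.662, 1.14 and 0.274 CPM (8, 16 and 4 counts), and stood at 15.2, 5.89 and 2.22 CPM in Qk-iCKO 1, 2 and 3. The lowest Qk-iCKO library was above the highest Ctrl library, but the Qk-iCKO libraries spread widely among themselves. The fit gave an 11.3-fold difference (log2 3.50 ± 0.78, adjusted p = 0.0277). The gene passed the filter on low counts only through its Qk-iCKO libraries, so it could be called only as higher. This call was lost without Ctrl 1 (3.46, adjusted p = 0.109), without Ctrl 2 (4.08, adjusted p = 0.0664) and without Ctrl 3 (3.10, adjusted p = 0.103), while without Qk-iCKO 1 the log2 fold change was 2.54 (adjusted p = 0.0496). Within the PMCA family, Atp2b4 held 9.54%, 12.1% and 7.41% of the summed RPKM in Ctrl and 48.8%, 28.9% and 9.29% in Qk-iCKO (exact permutation p = 0.3).

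Markers of other cell types moved in the same lens libraries. Of 6 macrophage markers 4 were tested and all 4 rose, with a summed level of 1.21 to 2.47 CPM in Ctrl and 52.1 to 66.7 CPM in Qk-iCKO. Of 4 endothelial markers 2 rose, and all 4 summed to 3.64 to 6.92 CPM in Ctrl and 10.8 to 21.7 CPM in Qk-iCKO. Of 6 fibroblast markers 4 were tested and 1 rose, Col3a1, at 0.827 to 1.14 CPM in Ctrl and 1.93 to 2.42 CPM in Qk-iCKO. All 6 summed to 63.6 to 79.1 CPM in Ctrl and 103 to 173 CPM in Qk-iCKO. Most of that sum was Pdgfra and Col1a2, which did not pass. The 5 pigment cell markers, none of which passed the test, summed to 3.49 to 6.90 CPM in Ctrl. In Qk-iCKO 1, 2 and 3 they summed to 136, 21.7 and 6.85 CPM, the same order of libraries as for Atp2b4. That order was not particular to pigment cells. Summed fibroblast markers (173, 146 and 103 CPM) and glial markers (120, 88.5 and 46.4 CPM) shared it, as did photoreceptor, red cell and striated muscle markers. Within the fibroblast sum Col1a2 had this order (101, 73.1 and 5.74 CPM) and Pdgfra the reverse (66.3, 68.2 and 93.6 CPM). Macrophage markers had the reverse order, and lens fibre, lens epithelium, neuronal, oligodendrocyte, endothelial and neural stem cell markers had other orders. Atp2b1 had another order, at 17.6, 15.6 and 25 CPM in Qk-iCKO 1, 2 and 3, which macrophage markers did not share (52.1, 55.6 and 66.7 CPM). Summed lens epithelium markers did share it (577, 548 and 690 CPM), with 521 to 581 CPM in Ctrl and none called. The part of any of these cell types in the changes of Atp2b1 and Atp2b4 was not tested.

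**Figure D3:**
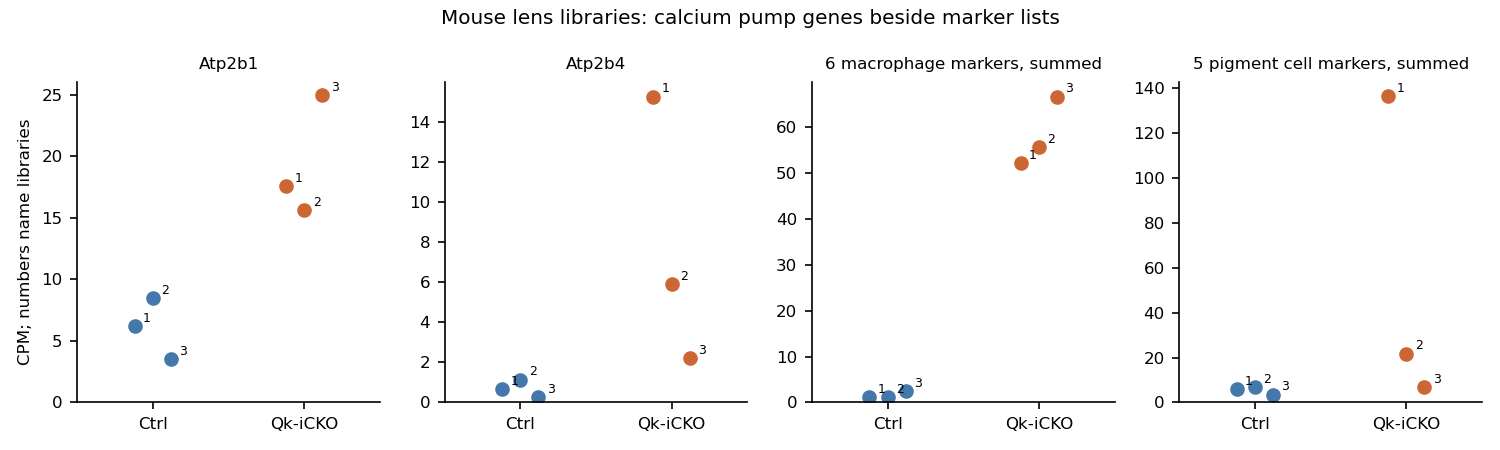
Atp2b1 and Atp2b4 in each lens library in CPM beside the summed CPM of 6 macrophage and 5 pigment cell markers, with Ctrl in blue, Qk-iCKO in orange and numbers naming the libraries. Qk-iCKO 1 is highest for Atp2b4 (15.2 CPM) and for pigment cell markers (136 CPM), and Qk-iCKO 3 is highest for Atp2b1 (25 CPM) and for macrophage markers (66.7 CPM). Lens epithelium markers, not drawn, were also highest in Qk-iCKO 3 (690 CPM).

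The same pump behaved otherwise elsewhere. In NLPC, Atp2b4 was at 3.85, 4.95 and 4.77 CPM in WT and 2.72, 8.22 and 3.72 CPM in Qk-/-, so the groups overlapped (log2 0.10 ± 0.39, adjusted p = 0.895). The direction turned without Qk-/- 2 (−0.48, adjusted p = 0.193), which was also the shallowest library. In HLE-B3, ATP2B4 fell from 121, 143 and 137 CPM to 107, 110 and 105 CPM, a 1.24-fold decrease (log2 −0.31 ± 0.065, adjusted p = 0.00121). The 50 genes around it on chromosome 1 had a median log2 fold change of −0.087, and ATP2B4 less that median was −0.23. With ATP2B1 higher and ATP2B4 lower, the share of ATP2B1 in the PMCA family went from 61.9% ± 2.32 to 72.3% ± 0.583 (exact permutation p = 0.1, the smallest possible).

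Atp2b2 was barely expressed in WT NLPC, at 0.540, 0.613 and 0.625 CPM, and reached 5.93, 6.14 and 6.80 CPM in the libraries labelled Qk-/-. The 3 values of each group were close together, and the difference was 10.6-fold (log2 3.40 ± 0.25, adjusted p = 0.000331), the largest of the set in that system. Even so, the gene contributed only 1.90% ± 0.350 of the PMCA RPKM in Qk-/- NLPC, against 0.333% ± 0.0485 in WT. Of 7 neuronal markers tested in NLPC, 2 rose (Map2 and Snap25) and none fell, beside 4.74% of all genes higher and 5.96% lower. Their sum was 1258 to 1332 CPM in WT and 1548 to 1685 CPM in Qk-/-. Most of it was Map2, at 1205 to 1285 CPM in WT (log2 0.34, adjusted p = 0.0305). Tubb3 was lower in every Qk-/- library than in every WT library but did not pass (−0.88, adjusted p = 0.0806). The part of neuronal RNA in the change of Atp2b2 was not tested. In lens, Atp2b2 was at 1.32, 1.28 and 0.274 CPM in Ctrl and 1.41, 1.74 and 1.31 CPM in Qk-iCKO, with overlap (log2 0.64 ± 0.53, adjusted p = 0.476). ATP2B2 in HLE-B3 had between 0 and 24 counts per library.

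**Figure D4:**
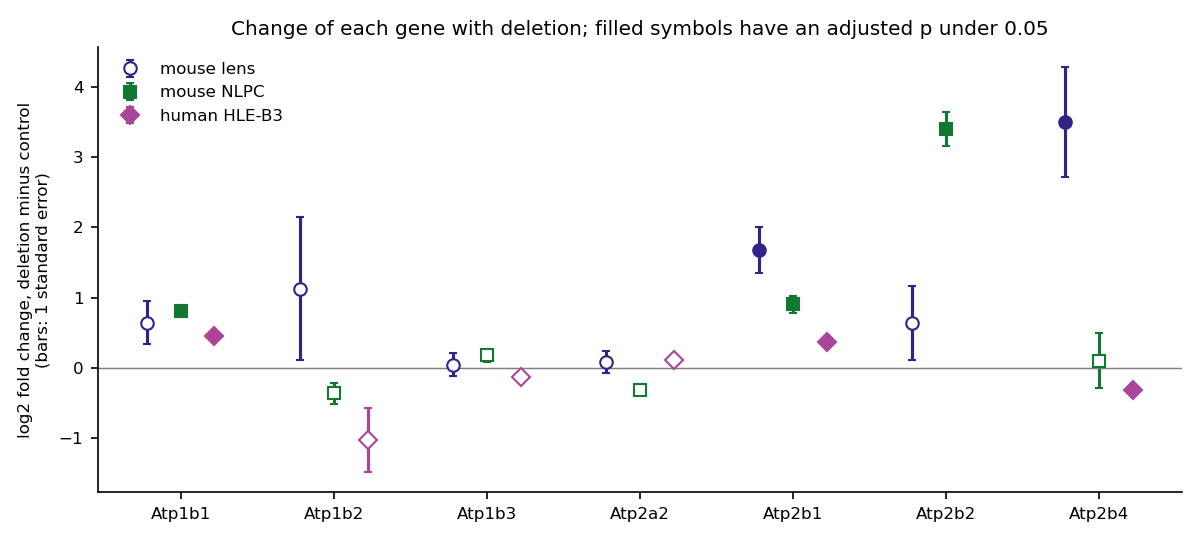
Log2 fold change (deletion minus control, bars of 1 standard error) of each gene in mouse lens (circles), mouse NLPC (squares) and human HLE-B3 (diamonds), with filled symbols where the adjusted p was under 0.05. Atp2b1 is filled and above 0 in all 3 systems, at 1.68, 0.91 and 0.37.

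Among the beta subunits, Atp1b1 was the one that passed the test, and did so in both cell systems. Atp1b1 is the most widely used beta subunit of transporting epithelia. In NLPC it rose from 86.2, 95.2 and 86.0 CPM in WT to 162, 156 and 152 CPM in Qk-/-, a 1.76-fold difference with no overlap (log2 0.81 ± 0.083, adjusted p = 0.00105). In HLE-B3 it rose 1.36-fold, from 70.8, 63.8 and 66.9 CPM to 85.7, 97.7 and 91.4 CPM (log2 0.45 ± 0.067, adjusted p = 6.09e-05). The 50 genes around ATP1B1 on chromosome 1 had a median log2 fold change of 0.25, and ATP1B1 less that median was 0.20. In lens, 1 library carried most of the difference: Atp1b1 was at 19.7, 17.5 and 12.8 CPM in Ctrl and at 38.6, 19 and 20.2 CPM in Qk-iCKO (log2 0.65 ± 0.31, adjusted p = 0.214), and without Qk-iCKO 1 the log2 fold change was 0.24.

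Atp1b3, the beta subunit with the highest level in lens, did not pass the test in any system. Its lens values were 179, 165 and 152 CPM in Ctrl and 185, 186 and 141 CPM in Qk-iCKO, with overlap (log2 0.046 ± 0.17, adjusted p = 0.886). The log2 fold change was 0.18 ± 0.088 in NLPC (adjusted p = 0.244) and −0.13 ± 0.064 in HLE-B3 (adjusted p = 0.155). Its share of the beta subunits was 89.0% ± 3.95 in Qk-iCKO lenses, 15.7% ± 1.89 in Qk-/- NLPC and 82.2% ± 0.852 in QKI KO cells.

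Atp1b2, also known as an adhesion molecule on glia, was at 611, 430 and 570 CPM in WT NLPC and at 472, 354 and 427 CPM in Qk-/-. The libraries of the groups overlapped, WT 2 being lower than Qk-/- 1, and the fold change did not pass (log2 −0.36 ± 0.15, adjusted p = 0.181). With the replicate number as a block the same comparison gave −0.36 with an adjusted p = 0.0401, but no label says that the numbers mark pairs. Summed levels of 8 glial markers were 6432 to 6698 CPM in WT and 3686 to 4463 CPM in Qk-/-, with 3 of the 8 lower and 1 higher, and their part in the Atp1b2 values was not tested. In lens, Atp1b2 ranged from 0.616 to 2.21 CPM in Ctrl and was at 6.55, 1.35 and 0.101 CPM in Qk-iCKO (log2 1.12 ± 1.02, adjusted p = 0.514), and without Qk-iCKO 1 the sign turned (−0.79). ATP1B2 in HLE-B3 went from 0.808, 0.603 and 1.05 CPM to 0.382, 0.492 and 0.327 CPM (log2 −1.03 ± 0.46, adjusted p = 0.0988).

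Combined over the 3 beta genes, the summed RPKM was 75.0 ± 6.96 in Ctrl and 80.6 ± 13.4 in Qk-iCKO lenses (2-sided exact permutation p = 0.5), 185 ± 20.7 and 181 ± 14.8 in WT and Qk-/- NLPC (exact p = 0.8), and 43.7 ± 2.35 and 42.4 ± 1.47 in WT and QKI KO cells (exact p = 0.6). Within that sum in NLPC, the share of Atp1b1 went from 15.8% ± 2.81 to 28.2% ± 1.87 and that of Atp1b2 from 70.6% ± 4.93 to 56.2% ± 3.77 (both exact p = 0.1). In HLE-B3 the share of ATP1B1 went from 12.5% ± 1.20 to 17.6% ± 0.801 (exact p = 0.1). The summed RPKM of the 4 PMCA genes was higher in every deletion library than in every control library of its system: 0.545 ± 0.233 against 2.05 ± 0.451 in lens, 14.2 ± 1.09 against 26.8 ± 4.22 in NLPC and 37.1 ± 1.22 against 41.0 ± 1.30 in HLE-B3 (each exact p = 0.1).

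Atp2a2, the SERCA2 pump that refills the endoplasmic reticulum, did not pass the edgeR test in any system. Lens libraries held 65.4, 57.6 and 68.6 CPM in Ctrl and 79.9, 58.9 and 64.1 CPM in Qk-iCKO, with overlap (log2 0.083 ± 0.16, adjusted p = 0.784). NLPC libraries held 431, 374 and 415 CPM in WT and 344, 319 and 320 CPM in Qk-/-. Every Qk-/- value was below every WT value, but the difference did not pass with edgeR (log2 −0.31 ± 0.087, adjusted p = 0.0599) and did with DESeq2 (−0.31, adjusted p = 0.00941) or without Qk-/- 2 (−0.29, adjusted p = 0.0397). In HLE-B3, ATP2A2 was at 307, 330 and 326 CPM in WT and at 346, 344 and 346 CPM in QKI KO (log2 0.11 ± 0.051, adjusted p = 0.131). Of the ACTAAC sites printed above 2 lie in this gene, and gene counts do not show whether they are bound.

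Whether deletion acted differently in lens and in NLPC was tested in 1 fit over both mouse tables, in which 8.54% of 16675 genes had a different effect. Of the 7 genes, 2 did. Atp2b2 rose more in NLPC (difference of log2 fold changes 2.85 ± 0.62, adjusted p = 0.0140), and this passed in each of 12 fits without 1 library. Atp2b4 rose more in lens (−3.31 ± 0.93, NLPC minus lens, adjusted p = 0.0474), but the call held in only 2 of 12 such fits, those without Qk-/- 2 and Qk-iCKO 3, and the adjusted p ranged from 0.0108 to 0.118. The difference in the effect on Atp2b1 was −0.68 ± 0.37 (adjusted p = 0.294) and that on Atp1b1 was 0.26 ± 0.33 (adjusted p = 0.706), neither of which passed. HLE-B3, from another species and another table, was not in that fit, and its differences from the mouse systems were not tested.

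The other genes that act with the pumps were taken from 6 lists of 81 genes in all. Of the calcium pump relatives and regulators, 1 of 7 tested rose and 2 fell in lens, 2 of 10 rose and none fell in NLPC, and 4 of 8 rose and none fell in HLE-B3. For these and the lists that follow, the shares over all genes tested were 8.38% higher and 3.88% lower in lens, 4.74% and 5.96% in NLPC, and 17.0% and 16.3% in HLE-B3. The median log2 fold change of the calcium pump relatives was 0.031 in lens, 0.31 in NLPC and 0.024 in HLE-B3.

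Calmodulin genes, whose product activates PMCA pumps, rose in both cell systems. In NLPC, Calm2 rose from 483 ± 5.43 to 855 ± 33.6 CPM (log2 0.82 ± 0.076, adjusted p = 0.0007), and in HLE-B3 CALM2 rose from 278 ± 16.7 to 442 ± 7.01 CPM (0.67 ± 0.055, adjusted p = 1.01e-07). CALM3 (0.41 ± 0.080, adjusted p = 0.000775) and NPTN, a neuroplastin that binds PMCA pumps (0.45 ± 0.060, adjusted p = 2.01e-05), were also higher in QKI KO. In lens, by contrast, Calm3 fell (−0.79 ± 0.21, adjusted p = 0.0493). That call was lost with total counts alone (−0.56, adjusted p = 0.0571) and without Ctrl 1, Ctrl 2, Ctrl 3, Qk-iCKO 2 or Qk-iCKO 3 (adjusted p from 0.0559 to 0.158). Fxyd5, a small regulator of the sodium pump, had at most 2 counts in any Ctrl library and stood at 8.80 ± 1.10 CPM in Qk-iCKO in lens (adjusted p = 0.00015). It passed the filter on low counts only through its Qk-iCKO libraries, so it could be called only as higher.

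Among exchangers and cotransporters that use the sodium gradient, 2 of 12 rose and 2 fell in lens, 3 of 14 rose and 2 fell in NLPC, and 1 of 7 rose and 2 fell in HLE-B3. The share higher in HLE-B3 was near the 17.0% of all genes. Slc24a2, a potassium-dependent sodium-calcium exchanger, was lower in lens (2.78 ± 0.852 against 8.27 ± 0.860 CPM, log2 −1.58 ± 0.25, adjusted p = 0.00791) and higher in NLPC (8.86 ± 1.14 against 3.21 ± 0.760, 1.46 ± 0.23, adjusted p = 0.00623), a contrast that was not tested. Slc12a2, the sodium-potassium-chloride cotransporter, rose in NLPC from 53.0 ± 2.01 to 196 ± 30.1 CPM (1.89 ± 0.12, adjusted p = 0.000242). SLC8A1, the sodium-calcium exchanger that clears calcium beside the PMCA pumps, rose in HLE-B3 from 16.0 ± 0.553 to 27.2 ± 2.78 CPM (0.77 ± 0.092, adjusted p = 6.38e-06). In NLPC the same gene was lower, from 29.1 ± 2.67 to 18.6 ± 3.23 CPM (Slc8a1, −0.65 ± 0.15, adjusted p = 0.0317), a call lost with total counts alone (−0.60, adjusted p = 0.0594) and without any 1 library other than Qk-/- 2 (adjusted p from 0.0736 to 0.145). In lens Slc8a1 did not pass (−0.20 ± 0.17, adjusted p = 0.498), and the difference between systems was not tested.

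Genes of calcium entry and release gave 3 higher and 1 lower of 19 tested in lens, 5 higher and 1 lower of 22 in NLPC, and 2 higher and 6 lower of 18 in HLE-B3. Beside the background of 3.88% lower in lens, 5.96% lower in NLPC and 17.0% higher in HLE-B3, the 1 lower gene in lens, the 1 lower gene in NLPC and the 2 higher genes in HLE-B3 were near the shares of all genes. The calcium release channels Itpr1 (1.19 ± 0.11, adjusted p = 0.000732), Itpr3 (1.53 ± 0.20, adjusted p = 0.00286) and Ryr2 (1.14 ± 0.17, adjusted p = 0.00489) and the channel Trpc1 (1.01 ± 0.11, adjusted p = 0.00126) rose in NLPC. The 1 lower gene there was another release channel, Itpr2 (−0.62 ± 0.14, adjusted p = 0.0289). ITPR2 (−0.80 ± 0.077, adjusted p = 5.79e-07) and the voltage-gated channel CACNA1C (−2.86 ± 0.22, adjusted p = 5.63e-08) fell in HLE-B3.

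Calcium-binding proteins of the endoplasmic reticulum gave 1 of 9 higher in lens, 3 of 9 lower in NLPC, and 4 of 7 higher in HLE-B3, beside 8.38%, 5.96% and 17.0% of all genes, and the lens share was near that of all genes. Those in HLE-B3 were led by RCN3 (1.45 ± 0.25, adjusted p = 0.00026), RCN2 (0.71 ± 0.081, adjusted p = 3.69e-06) and CALU (0.30 ± 0.050, adjusted p = 0.000143). Of the calpains and their inhibitor calpastatin, 1 of 5 rose in lens (8.38% of all genes) and none of 5 passed in NLPC. The lens gene was calpastatin, Cast (0.91 ± 0.21, adjusted p = 0.0334), and no calpain passed there. That call was lost with total counts alone (adjusted p = 0.0716) and without any 1 library other than Qk-iCKO 2 (adjusted p from 0.0631 to 0.122). In HLE-B3 the calpain small subunit CAPNS1 rose (0.35 ± 0.069, adjusted p = 0.000803) while calpastatin CAST fell (−0.33 ± 0.054, adjusted p = 0.000169), each 1 of 5 beside 17.0% and 16.3% of all genes. Up to 4 genes per list and system were picked by size of change, and of those picked 2 of 14 in lens, 8 of 17 in NLPC and 14 of 18 in HLE-B3 kept their call in every fit without 1 library. Calm3 and Cast in lens and Slc8a1 in NLPC aside, each picked gene named from these lists is among those that did. Itpr2 in NLPC was not among the genes picked.

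**Figure D5:**
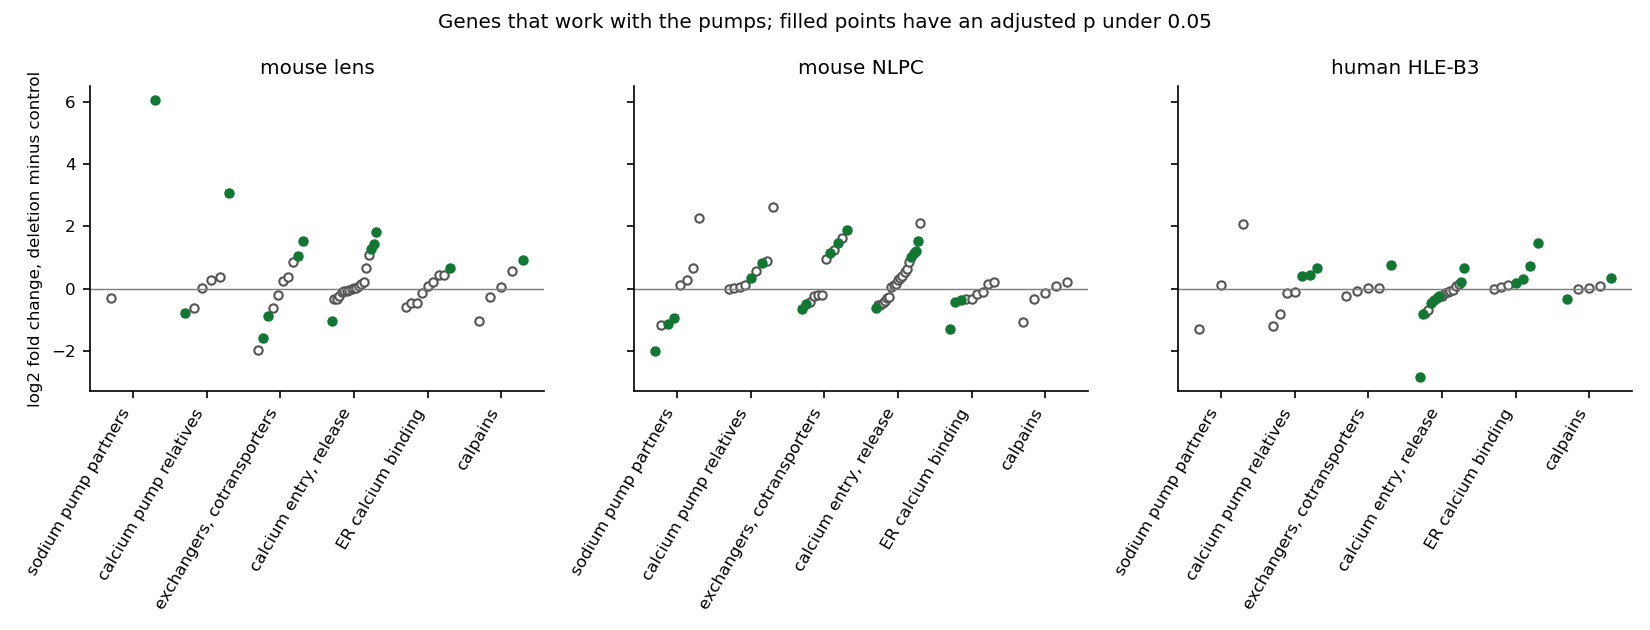
Log2 fold change (deletion minus control) of the tested genes of the 6 partner lists in mouse lens, mouse NLPC and human HLE-B3, each point 1 gene sorted by value within its list, filled where the adjusted p was under 0.05. The farthest point above 0 is Fxyd5 in lens and the farthest below 0 is CACNA1C in HLE-B3 at −2.86, and genes not reported here are left out.

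Within the mouse systems, the genes whose levels went most closely with a pump gene over 12 libraries, after the mean of each system was taken off, were found among 11225 genes tested in both. They were Rbbp5 and Ankrd10 for Atp2b1 (Pearson r = 0.97 for both), Lrfn1 and Lpgat1 for Atp1b1 (0.96 for both), Scg2 (0.98) for Atp2b2, and Dnajc10 (0.98) and Pam (0.96) for Atp2b4. Nmnat2 (0.96) and Cpox (0.94) went with Atp1b2, Tmem14a (0.95) and Ddr2 (0.90) with Atp1b3, and Hipk2 (0.95) and Ufsp1 (0.94) with Atp2a2. Among the 7 genes themselves, the closest pair was Atp1b1 and Atp2b2 (r = 0.77), followed by Atp2b1 and Atp2b4 (0.71) and Atp1b1 and Atp2b1 (0.70), and the most opposed was Atp2a2 and Atp2b2 (−0.69). These libraries share the contrast of deletion and control and their depth, so the values describe likeness in these 12 libraries alone.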

How the data were processed

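Total RNA was sequenced on Illumina machines with stranded paired-end libraries. Per the study's methods, the authors aligned reads with STAR 2.6.1b to mm10 or hg19 and counted them per gene with HTSeq 0.11.0. The submitters' processing notes also name HISAT2 2.0.4 and featureCounts with no role given. As deposited, each system has 1 table of whole-number counts by gene, which the authors had not normalised. Every column was used.

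Each system was fitted alone with edgeR 4.0.16 in R 4.3.3: TMM factors, filterByExpr (minimum count 10, minimum total 15), the quasi-likelihood test and Benjamini-Hochberg adjustment over all genes tested, with 0.05 as the threshold. SE is the absolute log2 fold change divided by the square root of F. The study's own test, DESeq2 (1.42.0 here), was an alternative. Levels are TMM-scaled CPM, and RPKM divides by merged exons of GENCODE (GRCm38, GRCh37). Mouse tables were joined by symbols unique in each for the test of the difference between systems. Likeness used log2 CPM with a prior count of 2. Scripts were tested on simulated counts with known changes.

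Residuals of libraries with the same replicate number correlated at 0.233, 0.133 and 0.523 in lens and at 0.123, 0.320 and 0.145 in NLPC. In HLE-B3 they correlated at 0.061, 0.057 and −0.049. Control and deletion libraries of unlike number reached 0.279 in lens, 0.232 in NLPC and 0.076 in HLE-B3, above some of these values. The correlations therefore do not settle whether the numbers mark pairs. The main fits used no pairs, and a fit with the number as a block was an alternative. The labels name no litter or batch.

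The named genes are the 7 pump genes and Qk, up to 4 called genes per partner list and system with the largest change, and the 2 genes most like each pump gene in mouse. Some genes that this rule names are not reported here. The members, lists, markers and motifs were chosen with earlier results of these data known.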

Additional observations from a re-analysis of the deposited data

Results flagged for a closer look

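The effect of deletion differed between lens and NLPC, NLPC minus lens on the log2 scale, by 2.85 for Atp2b2 and −3.31 for Atp2b4. Each difference passed the edgeR interaction test, that of Atp2b4 narrowly.

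In other pairs of systems every deletion library moved one way against all controls in 1 system and the opposite way in the other, and these differences were not tested. HLE-B3 minus NLPC was −0.30 for Atp1b3 and 0.42 for Atp2a2. HLE-B3 minus lens was −3.82 for Atp2b4. Groups of 3 libraries were too small for a test of single libraries that stand apart.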

How the results depend on the processing

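In lens, 1496 genes were called, against 3498 at an unadjusted p under 0.05, 2521 with every gene that had at least 1 count, 886 with total counts alone and 581 to 1709 with a library left out. Of the pump genes 2 were called in lens, 1 where at least 10 counts were required in every library (Atp2b4 was then not tested) and 0 to 2 with a library left out, 0 without Ctrl 1 (edgeR; 2 at an unadjusted p under 0.05 with all libraries, and 2 by DESeq2). Partner genes called in lens went from 14 to 25 at an unadjusted p and 5 with total counts alone. In NLPC, 2179 genes were called, against 5378 at an unadjusted p, 3826 by DESeq2 and 681 to 3797 with a library left out, and of the pump genes 3 against 5 at an unadjusted p. Partner genes called in NLPC went from 21 to 33 at an unadjusted p. The difference between lens and NLPC was called for 2 pump genes, 1 with total counts alone and 1 to 2 with a library left out. The cause was not tested in any of these.

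With total counts alone the difference between systems turned for Atp1b1 (−0.17) and Atp1b3 (−0.12), where the lens median had shifted to 0.29. With a library left out, the lens log2 fold change ranged from −0.79 to 1.78 for Atp1b2, −0.023 to 0.16 for Atp1b3 and −0.053 to 0.17 for Atp2a2, the difference between systems for Atp1b2 from −2.17 to 0.53, and Atp2b4 in NLPC from −0.48 to 0.38. Signs turned without Qk-iCKO 1 (all of the lens values and that difference), without Ctrl 3 or Qk-iCKO 2 (Atp1b3 in lens), and without Qk-/- 2 or WT 1 or with the replicate block (Atp2b4 in NLPC, −0.046 with the block). None of these values passed the test.

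The replicate block changed no call of a pump gene other than Atp1b2 in NLPC. It ended the call of 1 of 14 picked partner genes in lens, 3 of 17 in NLPC and 2 of 18 in HLE-B3. In HLE-B3 the block gave 5901 genes in place of 6341 and 3 pump genes in place of 3. With total counts alone ATP1B3 also passed there (−0.18, adjusted p = 0.0429). Low counts limit Atp2b2 and Atp2b4 in lens, and 3 libraries a group limit every test.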
